A study of Mus musculus with 17 samples.

Results

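The genes described are 9 that encode glucose transporters and enzymes of the upper part of glycolysis: the transporter genes Slc2a1 and Slc2a3, the hexokinase genes Hk1, Hk2 and Hk3, the phosphofructokinase genes Pfkl and Pfkp, and Pfkfb3 and Pfkfb4 of the bifunctional enzymes that regulate phosphofructokinase. Every probe set annotated to exactly 1 of these symbols was taken, which gave 18 of the 45037 probe sets on the array and 9 of the 17097 genes with a symbol of their own. Slc2a3 had 4 probe sets, Pfkl 3, and Slc2a1, Hk1, Pfkp and Pfkfb3 had 2 each, while Hk2, Hk3 and Pfkfb4 had 1. Where a gene had several, the one with the highest mean over the 17 arrays is called its main probe set. The rule that picked probe sets used gene symbols alone, but the 9 genes were chosen with earlier results of these data known. Shares of calls among them therefore describe these genes and are no independent test.

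Cells take up glucose through facilitative transporters of the SLC2A (GLUT) family, of which GLUT1 serves basal uptake in most cells and GLUT3 has a high affinity for glucose. Hexokinases then phosphorylate glucose and so trap it in the cell, and phosphofructokinase carries out the first step that is committed to glycolysis. The PFKFB enzymes make and break down the fructose bisphosphate that activates phosphofructokinase. Neutrophils hold few mitochondria and are known to rely on glycolysis for their energy, and macrophages raise their glucose use when they are activated.

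The study hybridised RNA of flow-sorted mouse cells to 17 perfect-match Affymetrix arrays, which fall into 6 groups. Spleen macrophages (3 pools, sorted as CD11c-CD11b+MCSFR+) and spleen granulocytes (3 pools, CD11c-CD11b+Ly6C+MCSFR-) came from wild-type mice. Bone marrow gave myelo-dendritic progenitors (MDPs), precursors of macrophages and dendritic cells, sorted as lineage-sca1-CD127-CD117+MCSFR+. MDPs came as 3 pools labelled IRF8 knockout, 2 VENUS-negative pools, 3 VENUS-positive pools and 3 wild-type pools. The knockout-labelled and both VENUS groups carry the genotype IRF8-deficient, which in the VENUS groups may stand for the reporter allele. Mice were 6 to 10 weeks of age, and each pool combined 5 of them, except that no number is given for the VENUS pools. IRF8 is a transcription factor of the macrophage and dendritic cell lineage. A level is an RMA value of the authors (log2 scale). All p-values reflect how pools varied, and precision is limited by the small number of arrays.

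Array medians lay between 4.33 and 4.48, and lower quartiles between 3.18 and 3.42. Irf8 read 10.18 to 10.42 in MDPs labelled knockout and 10.19 to 10.56 in wild-type MDPs, so this probe set gives no check of the label. The MDPs with that label are called knockout-labelled here. In the VENUS groups the same Irf8 probe set read 10.72 to 11.10 in VENUS-positive and 5.49 and 6.25 in VENUS-negative MDPs. The monocyte and macrophage list (9 genes) averaged 8.46 to 8.62 in macrophages, against 6.10 to 6.89 in wild-type MDPs, and the neutrophil granule list (12 genes) averaged 9.95 to 10.88 in granulocytes, against 6.52 to 9.79 in wild-type MDPs. That granule list went both ways, with 8 genes called higher and 4 lower in granulocytes than in wild-type MDPs. Of all genes, 43.8% were called in that comparison. Elane, Mpo, Prtn3 and Ctsg were lower in every granulocyte array than in every wild-type MDP array. Granulocytes also carried NK-cell genes, with a 6-gene mean of 7.20 to 7.99, against 4.79 to 6.11 in wild-type MDPs. Wild-type MDP pool 3 stood apart from pools 1 and 2. Its mean was 9.79 over the neutrophil granule genes, where those pools had 6.83 and 6.52, and 9.06 over 8 erythroid genes, where they had 6.27 and 6.64. VENUS-negative MDPs read 10.70 and 9.37 over these erythroid genes, against 6.22, 5.82 and 6.47 in VENUS-positive MDPs, and 4.17 and 4.21 over the monocyte and macrophage genes, against 6.17 to 6.45. Csf1r (MCSFR) read 5.09 and 4.83 in VENUS-negative MDPs, 7.63 to 8.05 in VENUS-positive MDPs and 7.16 to 8.56 in granulocytes, sorted as MCSFR-. Itgax (CD11c) read 6.94 to 8.57 in the spleen cells, sorted as CD11c-, against 3.36 to 4.25 in wild-type MDPs. Kit (CD117) was higher in every MDP array than in spleen cells, and Itgam (CD11b) lower. These are RNA levels, while sorting used surface proteins.

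Both glucose transporter genes, Hk2, Hk3 and Pfkfb4 were higher in granulocytes than in wild-type MDPs. By limma, with the Benjamini-Hochberg adjustment over all 45037 probe sets and a call at an adjusted p under 0.05, 9 of the 18 probe sets were higher and 2 lower in granulocytes than in wild-type MDPs, a share of 61.1% where 38.4% of all probe sets were called. The 9 higher ones belong to Slc2a1, Slc2a3, Hk2, Hk3 and Pfkfb4, and the 2 lower ones to Pfkl. In macrophages 4 were higher (Slc2a1 with both probe sets, Hk2, Pfkfb4) and 5 lower (3 of Slc2a3, Hk3, 1 of Pfkl) than in wild-type MDPs, a share of 50% against 18.9% of all probe sets. Both contrasts share the wild-type MDP pools. Of macrophages and granulocytes themselves, macrophages had 0 probe sets higher and 8 lower, a share of 44.4%, with 24.9% of all probe sets called and 11.3% called lower. The median difference of the 18 probe sets was 0.73 for granulocytes minus wild-type MDPs, where all probe sets had 0.11, 0.06 for macrophages minus wild-type MDPs, where all had 0.00, and -0.41 for macrophages minus granulocytes, where all had -0.10. Over the 6 groups, 14 of the 18 probe sets differed by limma's moderated F test, against 41.0% of all probe sets. The 4 that did not pass were both Pfkp probe sets, 1 of Pfkl and the main one of Pfkfb3. Arrays of sorted populations do not show whether a lower level means fewer cells that express a gene or less RNA per cell: these cannot be told apart.

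**Figure D1:**
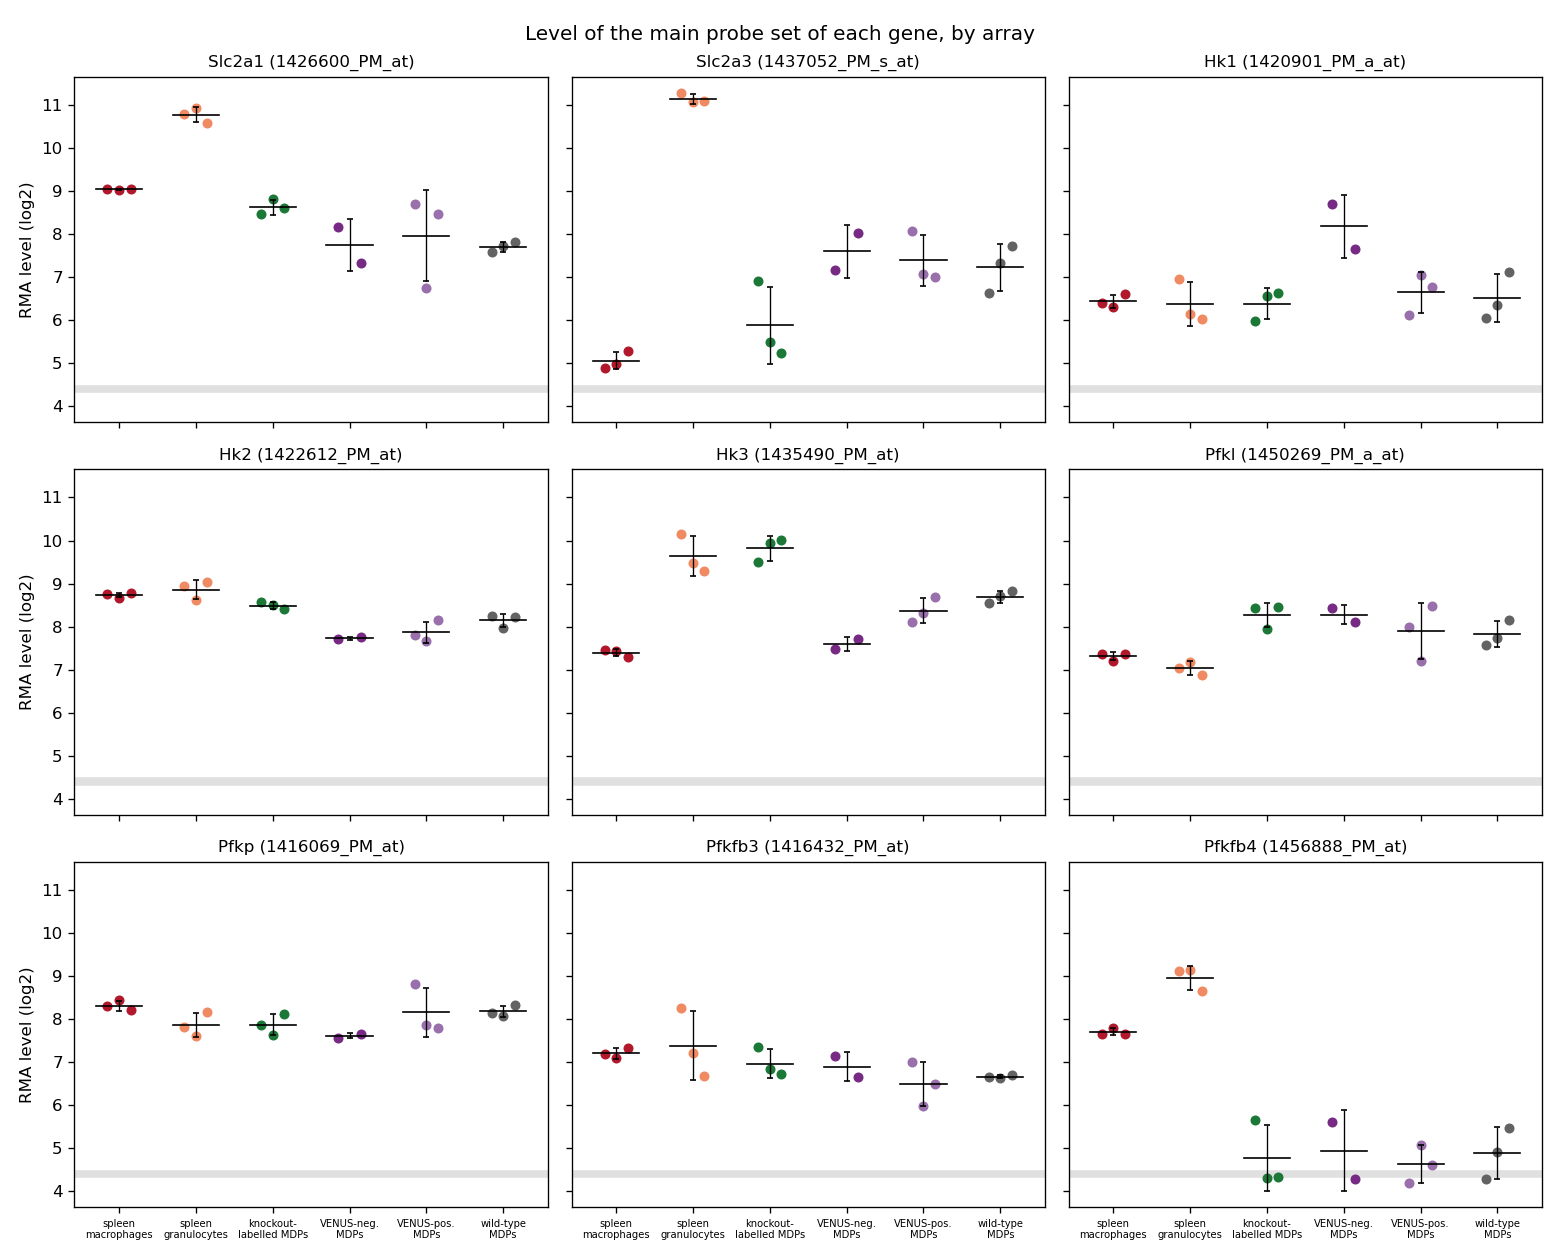
Levels (RMA, log2) of the main probe set of each of the 9 genes, with 1 point per array for spleen macrophages, spleen granulocytes, knockout-labelled, VENUS-negative, VENUS-positive and wild-type MDPs from left to right. Lines are group means, bars are ± 1 SD, and the grey band spans the array medians (4.33 to 4.48); Slc2a3 lies between 11.06 and 11.29 in granulocytes and between 4.90 and 5.29 in macrophages, and Pfkfb4 stands near the band in all MDP groups.

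Among the MDP groups few probe sets were called. Knockout-labelled minus wild-type MDPs gave 1 higher and 0 lower of 18 (background 0.575%), namely Hk3. At an unadjusted p under 0.05 limma counted 6 of 18, where 8.06% of all probe sets passed. VENUS-negative minus VENUS-positive MDPs gave 2 higher, both of Hk1, and 1 lower, of Pfkfb3 (background 4.44%). VENUS-positive minus wild-type MDPs gave 0 of 18, as limma called 0% of all probe sets there, and 0 of 18 passed at an unadjusted p under 0.05, where 5.91% of all did. The 95% confidence intervals of that last comparison ran from -0.55 to 1.06 for the main probe set of Slc2a1 and from -0.78 to 0.15 for Hk3.

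Promoter sequences are shown for Slc2a1, Hk2, Hk3 and Pfkfb4, since these were called higher in granulocytes than in wild-type MDPs and have a window in the RefSeq table of GRCm38.p6. Slc2a3, which was called higher as well, is named only. A window holds 250 bases before and 50 after the transcription start, printed 5′ to 3′ on the strand of the gene. Capitals mark ACGTG, a form of the core to which the hypoxia-inducible factors bind, on either strand. They also mark GAGGAA, a form of the core of the sites of the myeloid factor PU.1. Other forms of these cores were not searched. Slc2a1 lies at chr4:119108495-119108794 on the plus strand, Hk2 at chr6:82774405-82774704 on the minus strand, Hk3 at chr13:55021336-55021635 on the minus strand and Pfkfb4 at chr9:108991652-108991951 on the plus strand.
Slc2a1: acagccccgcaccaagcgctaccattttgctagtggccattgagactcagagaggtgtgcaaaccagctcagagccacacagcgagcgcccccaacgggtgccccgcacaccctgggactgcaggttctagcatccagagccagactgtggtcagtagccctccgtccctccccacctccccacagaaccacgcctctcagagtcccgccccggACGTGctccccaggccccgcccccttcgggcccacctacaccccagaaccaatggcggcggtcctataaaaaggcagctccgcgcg
Hk2: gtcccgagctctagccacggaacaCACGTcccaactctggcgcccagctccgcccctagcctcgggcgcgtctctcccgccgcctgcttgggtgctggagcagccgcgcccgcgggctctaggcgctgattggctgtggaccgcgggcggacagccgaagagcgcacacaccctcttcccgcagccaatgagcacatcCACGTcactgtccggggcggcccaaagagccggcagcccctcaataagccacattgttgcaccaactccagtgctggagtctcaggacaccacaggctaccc
Hk3: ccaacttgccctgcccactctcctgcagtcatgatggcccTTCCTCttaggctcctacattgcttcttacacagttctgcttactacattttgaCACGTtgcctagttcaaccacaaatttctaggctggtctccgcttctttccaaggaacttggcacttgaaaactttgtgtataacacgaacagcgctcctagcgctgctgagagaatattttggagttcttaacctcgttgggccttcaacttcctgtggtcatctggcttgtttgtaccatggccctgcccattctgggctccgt
Pfkfb4: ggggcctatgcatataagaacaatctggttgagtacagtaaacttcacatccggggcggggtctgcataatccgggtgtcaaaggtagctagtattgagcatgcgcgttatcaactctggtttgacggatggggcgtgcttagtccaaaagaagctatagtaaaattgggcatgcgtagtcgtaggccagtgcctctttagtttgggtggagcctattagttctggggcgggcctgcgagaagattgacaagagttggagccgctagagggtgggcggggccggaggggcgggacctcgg
The Slc2a1 window held ACGTG 36 bases before the start. The Hk2 window held it at 2 places, and the Hk3 window once together with GAGGAA. The Pfkfb4 window held neither, which says only that these letters are not in it. Of the 9 genes 8 had a window, with 10 windows in all, and 6 of these held ACGTG and 3 GAGGAA. Of all 32817 windows of this length 19.6% held ACGTG and 28.3% GAGGAA, and these matches are a description of the letters only.

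Slc2a1, which encodes GLUT1, was highest in granulocytes. Its main probe set (1426600_PM_at) read 9.05, 9.03 and 9.05 in macrophages and 10.79, 10.94 and 10.59 in granulocytes. MDPs gave 8.46, 8.81 and 8.60 in knockout-labelled pools, 8.18 and 7.32 in VENUS-negative pools, 8.70, 6.75 and 8.47 in VENUS-positive pools and 7.59, 7.73 and 7.82 in wild-type pools. Granulocytes, macrophages and knockout-labelled MDPs followed each other with no overlap. Knockout-labelled MDPs stood above wild-type ones but overlapped VENUS-positive MDPs, and the other MDP groups overlapped, with VENUS-positive pool 2 lowest of all arrays. Granulocytes exceeded wild-type MDPs 8.36-fold (log2 difference 3.06, SE 0.38, limma adjusted p = 1.51e-05), and macrophages exceeded them 2.51-fold (1.33, SE 0.38, adjusted p = 0.0216). The macrophage call was lost without any 1 of the macrophage pools and without wild-type pool 1 or 2 (adjusted p from 0.0528 to 0.0702). Macrophages lay 3.33-fold below granulocytes (log2 difference -1.73, adjusted p = 0.00343). The second probe set (1426599_PM_a_at, r = 0.95 with the first over the 17 arrays) differed by 3.00 for granulocytes minus wild-type MDPs and by 1.03 for macrophages minus wild-type MDPs, both called.

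Knockout-labelled pools were also above all wild-type pools in Slc2a1, but the difference was not called with either probe set. The main one differed by 0.91 (95% interval 0.11 to 1.72, limma adjusted p = 0.511) and the second, at 8.09, 8.08 and 8.35 in knockout-labelled against 7.73, 7.50 and 7.70 in wild-type MDPs, by 0.53 (adjusted p = 0.669). In all, 6 of the 18 probe sets had no overlap between knockout-labelled and wild-type arrays, where 13.6% of all probe sets had none.

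Slc2a3, which encodes GLUT3, had the widest range of the 9 genes. Its main probe set (1437052_PM_s_at) read 4.90, 5.00 and 5.29 in macrophages and 11.29, 11.06 and 11.10 in granulocytes. MDPs gave 6.91, 5.50 and 5.25 in knockout-labelled pools, 7.17 and 8.04 in VENUS-negative pools, 8.09, 7.08 and 7.01 in VENUS-positive pools and 6.65, 7.34 and 7.72 in wild-type pools. Granulocytes stood above every other array, and macrophages below every wild-type and VENUS array, with knockout-labelled pool 3 within the macrophage range. Macrophages lay 67.9-fold below granulocytes (log2 difference -6.08, SE 0.41, limma adjusted p = 1.19e-07) and 4.51-fold below wild-type MDPs (-2.17, adjusted p = 0.0015). Granulocytes exceeded wild-type MDPs by a log2 difference of 3.91 (SE 0.41, adjusted p = 3.49e-06). So the transporter genes ran in opposite directions in macrophages, where Slc2a1 was above and Slc2a3 below the level of wild-type MDPs.

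The other probe sets of Slc2a3 gave the same direction between macrophages and granulocytes. Probe set 1455898_PM_x_at, annotated to the same transcript accession, read 4.39, 5.36 and 5.59 in macrophages and 11.06, 10.86 and 10.82 in granulocytes, against 6.66, 7.21 and 7.63 in wild-type MDPs. Probe set 1421924_PM_at read 3.57, 3.28 and 3.36 in macrophages, about the lower quartile of the arrays, 8.65, 8.78 and 8.34 in granulocytes and 4.63, 4.51 and 4.68 in wild-type MDPs. Probe set 1427770_PM_a_at read 3.81, 3.76 and 4.15 in macrophages and 7.94, 7.26 and 6.66 in granulocytes, against 3.93, 3.72 and 4.02 in wild-type MDPs, so that macrophages and wild-type MDPs overlapped in this probe set alone, where all groups but granulocytes averaged 3.73 to 4.12, under the array medians. The suffixes s and x mark probe sets that may also bind other transcripts. All 4 were called higher in granulocytes than in wild-type MDPs (log2 differences 3.91, 3.75, 3.98 and 3.40), and 3 of 4 were called lower in macrophages than in wild-type MDPs. The macrophage call of 1421924_PM_at was lost without macrophage pool 2 or 3 or wild-type pool 1 or 3 (adjusted p from 0.06 to 0.0756).

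In knockout-labelled MDPs the main Slc2a3 probe set differed from wild-type MDPs by -1.35 on the log2 scale (95% interval -2.23 to -0.47) and was not called (limma adjusted p = 0.252). Knockout-labelled pool 1, at 6.91, overlapped the wild-type pools, and without it the difference was -1.86 (adjusted p = 0.0365). Without wild-type pool 1 it was -1.65 (adjusted p = 0.244), and the 2-group fit gave an adjusted p of 0.493. The other probe sets differed by -1.09 (1455898_PM_x_at), -0.29 (1421924_PM_at) and -0.10 (1427770_PM_a_at), and none was called.

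Hk3, a hexokinase gene of myeloid cells, was the only one of the 9 genes called in knockout-labelled MDPs. It read 7.46, 7.44 and 7.29 in macrophages and 10.16, 9.48 and 9.29 in granulocytes. MDPs gave 9.49, 9.95 and 10.00 in knockout-labelled pools, 7.48 and 7.70 in VENUS-negative pools, 8.11, 8.31 and 8.69 in VENUS-positive pools and 8.54, 8.71 and 8.82 in wild-type pools. Every knockout-labelled pool lay above every wild-type pool and within the granulocyte range. VENUS-negative MDPs came below all other MDPs and macrophages lowest of all, neither overlapping another group. The knockout-labelled level was 2.18-fold above the wild-type one (log2 difference 1.13, SE 0.22, limma adjusted p = 0.0306). Leaving out 1 array gave differences of 1.03 to 1.29, and the adjusted p lay between 0.0532 and 0.145 without any 1 wild-type pool or without knockout-labelled pool 2 or 3. A fit of these 6 arrays alone gave an adjusted p of 0.118.

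Erythroid and neutrophil granule genes were read beside this difference. Of the 8 erythroid genes 0 were called higher and 4 lower in knockout-labelled than in wild-type MDPs, where limma called 0.784% of all genes. Their median log2 difference was -2.68, where all genes had 0.01. The 8-gene erythroid mean was 4.27, 4.47 and 4.48 in knockout-labelled against 6.27, 6.64 and 9.06 in wild-type pools. The 12-gene neutrophil granule mean was 8.63, 7.96 and 8.50 in knockout-labelled MDPs, against 6.83, 6.52 and 9.79 in wild-type MDPs, and 1 of the 12 genes was called higher. That mean joins genes that were higher and genes that were lower in granulocytes than in wild-type MDPs. Wild-type pool 3, the highest of the 6 in these genes, had 8.82 for Hk3, and without it the Hk3 difference was 1.19 (limma adjusted p = 0.0532). The part of erythroid or granulocyte-lineage cells in the Hk3 difference was not tested.

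Of the mature populations, macrophages had less Hk3 than granulocytes. Macrophages lay 4.74-fold below granulocytes (log2 difference -2.24, SE 0.22, limma adjusted p = 3.32e-06) and 2.45-fold below wild-type MDPs (-1.29, adjusted p = 0.000578). Granulocytes exceeded wild-type MDPs 1.94-fold (0.95, adjusted p = 0.00298). VENUS-negative pools lay below every VENUS-positive pool, but the difference of -0.78 (95% interval -1.30 to -0.26) was not called (adjusted p = 0.0963).

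Hk2, which encodes an inducible hexokinase that binds mitochondria, was higher in both mature populations than in wild-type MDPs. It read 8.77, 8.67 and 8.77 in macrophages and 8.93, 8.61 and 9.03 in granulocytes. MDPs gave 8.56, 8.51 and 8.40 in knockout-labelled pools, 7.70 and 7.75 in VENUS-negative pools, 7.81, 7.65 and 8.14 in VENUS-positive pools and 8.24, 7.98 and 8.23 in wild-type pools. The mature groups overlapped each other and no MDP array. Macrophages exceeded wild-type MDPs 1.51-fold (log2 difference 0.59, SE 0.15, limma adjusted p = 0.00943) and granulocytes 1.64-fold (0.71, SE 0.15, adjusted p = 0.00137). Knockout-labelled pools were above every wild-type pool, without a call (0.34, 95% interval 0.03 to 0.65, adjusted p = 0.538).

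Hk1, which encodes the hexokinase of most tissues and of red blood cells, stood out in VENUS-negative MDPs. Its main probe set (1420901_PM_a_at) read 6.40, 6.31 and 6.62 in macrophages and 6.96, 6.15 and 6.03 in granulocytes. MDPs gave 5.98, 6.56 and 6.64 in knockout-labelled pools, 8.71 and 7.66 in VENUS-negative pools, 6.13, 7.06 and 6.77 in VENUS-positive pools and 6.06, 6.37 and 7.13 in wild-type pools. The VENUS-negative arrays were above all others, and the remaining 5 groups overlapped. The difference from VENUS-positive MDPs was 2.89-fold (log2 difference 1.53, SE 0.39, limma adjusted p = 0.0406), and without VENUS-negative pool 1 it was 1.01 (adjusted p = 0.372). The call was also lost without VENUS-positive pool 1 (0.128) or 3 (0.07). The second probe set (1437974_PM_a_at), at 7.76 and 8.04 in VENUS-negative against 6.47, 6.55 and 6.11 in VENUS-positive MDPs, differed by 1.52 (SE 0.22, adjusted p = 0.000883) and was called without any 1 of these 5 arrays, with adjusted p-values up to 0.0151.

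Most erythroid genes of the list moved with this difference. Of the 8 on the list, 6 were called higher and 0 lower in VENUS-negative MDPs against VENUS-positive ones (background 5.40%). Their median log2 difference was 4.46, where all genes had -0.01. Klf1 read 9.46 and 8.87 in VENUS-negative against 5.41, 3.90 and 5.03 in VENUS-positive MDPs, and Gata1 9.58 and 8.75 against 5.15, 4.54 and 4.23. The globin genes overlapped, with Hba-a1 at 11.94 and 9.41 against 9.60, 8.70 and 10.74. Hbb-b2 read 11.84 and 10.20 against 10.18, 10.14 and 11.01. In knockout-labelled minus wild-type MDPs, where the erythroid median difference was -2.68, the Hk1 probe sets differed by -0.13 and -0.49, neither called. The 8-gene erythroid mean was higher in VENUS-negative pool 1 than in pool 2, as was the main Hk1 probe set, while the second Hk1 probe set was higher in pool 2. In wild-type MDPs pool 3 had the highest erythroid mean and the highest level of both Hk1 probe sets. Mast cell and basophil genes (5-gene mean 8.23 and 8.44 against 4.62 to 4.69) and platelet genes (4-gene mean 7.08 and 7.11 against 3.94 to 4.15) were higher too. The part of any of these cell types in the Hk1 difference was not tested.

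**Figure D2:**
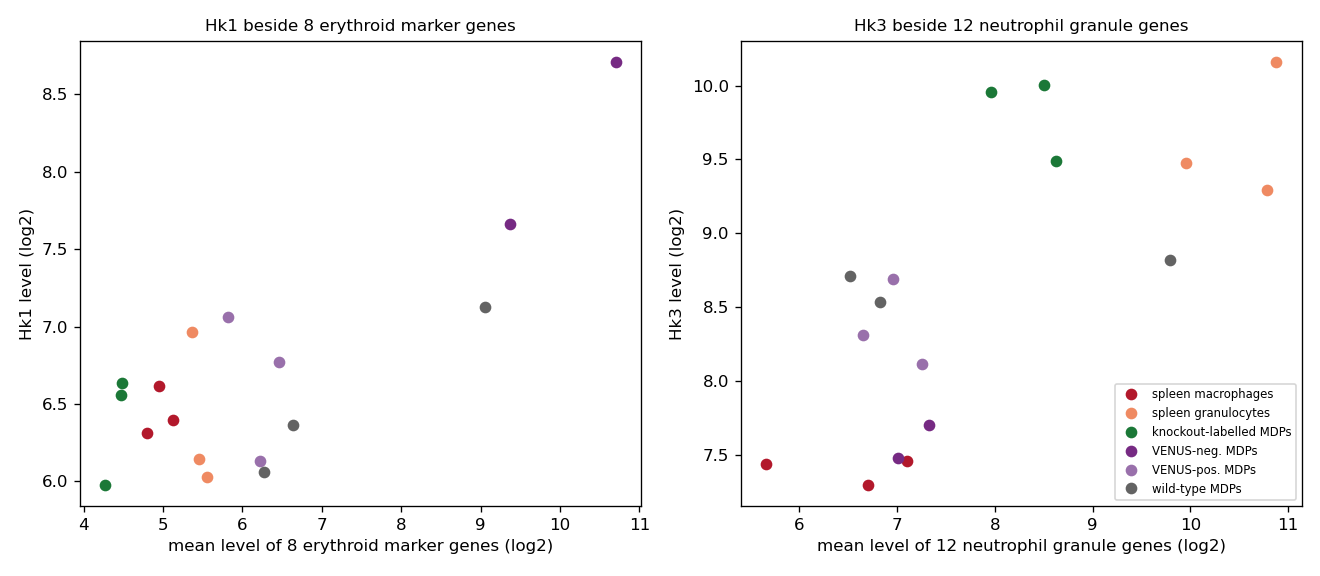
Level of Hk1 (RMA, log2, main probe set) against the mean level of 8 erythroid genes on the left, and of Hk3 against that of 12 neutrophil granule genes on the right, with 1 point per array and colours for the 6 groups. VENUS-negative MDPs combine the 2 highest erythroid means (10.70 and 9.37) with the 2 highest Hk1 levels (8.71 and 7.66).

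The phosphofructokinase genes gave few calls. Pfkl, which encodes the liver-type subunit, read 7.37, 7.21 and 7.35 in macrophages and 7.05, 7.19 and 6.87 in granulocytes with its main probe set (1450269_PM_a_at). MDPs gave 8.42, 7.94 and 8.45 in knockout-labelled pools, 8.43 and 8.12 in VENUS-negative pools, 8.0, 7.19 and 8.48 in VENUS-positive pools and 7.58, 7.74 and 8.16 in wild-type pools. Both mature populations lay below all wild-type pools, and the 4 MDP groups overlapped. Granulocytes were 1.73-fold below wild-type MDPs (log2 difference -0.79, SE 0.26, limma adjusted p = 0.029), which was not called without wild-type pool 3 (-0.62, adjusted p = 0.12), granulocyte pool 1 (0.0541) or granulocyte pool 3 (0.0909). A second probe set (1439148_PM_a_at, r = 0.92 with the main one) read 6.09, 5.98 and 6.16 in macrophages and 6.06, 6.03 and 5.82 in granulocytes, against 6.95, 6.99 and 7.15 in wild-type MDPs, and was called lower in both (-0.95, adjusted p = 0.00943, and -1.06, adjusted p = 0.00238). The third (1453541_PM_at, r = 0.23 with the main one) stayed between 5.96 and 6.47 on all arrays and was not called in any comparison.

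Pfkp, which encodes the platelet-type subunit, was not called in any of the 6 comparisons with either probe set. The main one (1416069_PM_at) read 8.29, 8.43 and 8.20 in macrophages and 7.81, 7.61 and 8.17 in granulocytes. MDPs gave 7.85, 7.62 and 8.11 in knockout-labelled pools, 7.56 and 7.64 in VENUS-negative pools, 8.81, 7.85 and 7.80 in VENUS-positive pools and 8.15, 8.07 and 8.32 in wild-type pools. VENUS-negative pools lay below every VENUS-positive pool, a difference of -0.55 with a 95% interval of -1.11 to 0.01. The second probe set (1437759_PM_at) ran from 5.28 to 7.15 and barely followed the first (r = 0.14 over the 17 arrays).

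Pfkfb4 separated both mature populations from all MDPs. It read 7.66, 7.79 and 7.65 in macrophages and 9.10, 9.14 and 8.64 in granulocytes. MDPs gave 5.64, 4.30 and 4.33 in knockout-labelled pools, 5.60 and 4.28 in VENUS-negative pools, 4.19, 5.07 and 4.61 in VENUS-positive pools and 4.27, 4.91 and 5.47 in wild-type pools. Granulocytes lay above macrophages and macrophages above every MDP array, and the MDP groups overlapped near the array medians. Granulocytes exceeded wild-type MDPs 16.9-fold (log2 difference 4.08, SE 0.41, limma adjusted p = 2.11e-06) and macrophages exceeded them 7.04-fold (2.82, SE 0.41, adjusted p = 0.000167). The difference of -1.26 between macrophages and granulocytes was called (SE 0.41, adjusted p = 0.0357), but not when any 1 macrophage pool or granulocyte pool 1 or 2 was left out (adjusted p from 0.0758 to 0.107).

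Pfkfb3, which encodes the isoform with the highest kinase activity relative to its phosphatase activity, was not called in any comparison with its main probe set (1416432_PM_at). That one read 7.18, 7.08 and 7.33 in macrophages and 8.25, 7.21 and 6.66 in granulocytes. MDPs gave 7.34, 6.83 and 6.71 in knockout-labelled pools, 7.13 and 6.66 in VENUS-negative pools, 6.99, 5.98 and 6.49 in VENUS-positive pools and 6.64, 6.63 and 6.70 in wild-type pools. Granulocyte pool 1 was the highest array and VENUS-positive pool 2 the lowest. Macrophage and knockout-labelled arrays lay above all wild-type arrays, by mean differences of 0.54 (limma adjusted p = 0.338) and 0.31 (adjusted p = 0.949). The second probe set (1456676_PM_a_at) showed little relation to the first (r = 0.09). It read 5.53 and 5.17 in VENUS-negative against 6.17, 7.91 and 6.48 in VENUS-positive MDPs, a log2 difference of -1.51 (SE 0.40, limma adjusted p = 0.0455). Without VENUS-positive pool 2, which holds the 7.91, it was -0.98 (adjusted p = 0.0705), and without VENUS-negative pool 1 or 2 the adjusted p was 0.115 or 0.247. The main probe set differed by 0.41, the other direction (adjusted p = 0.725).

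**Figure D3:**
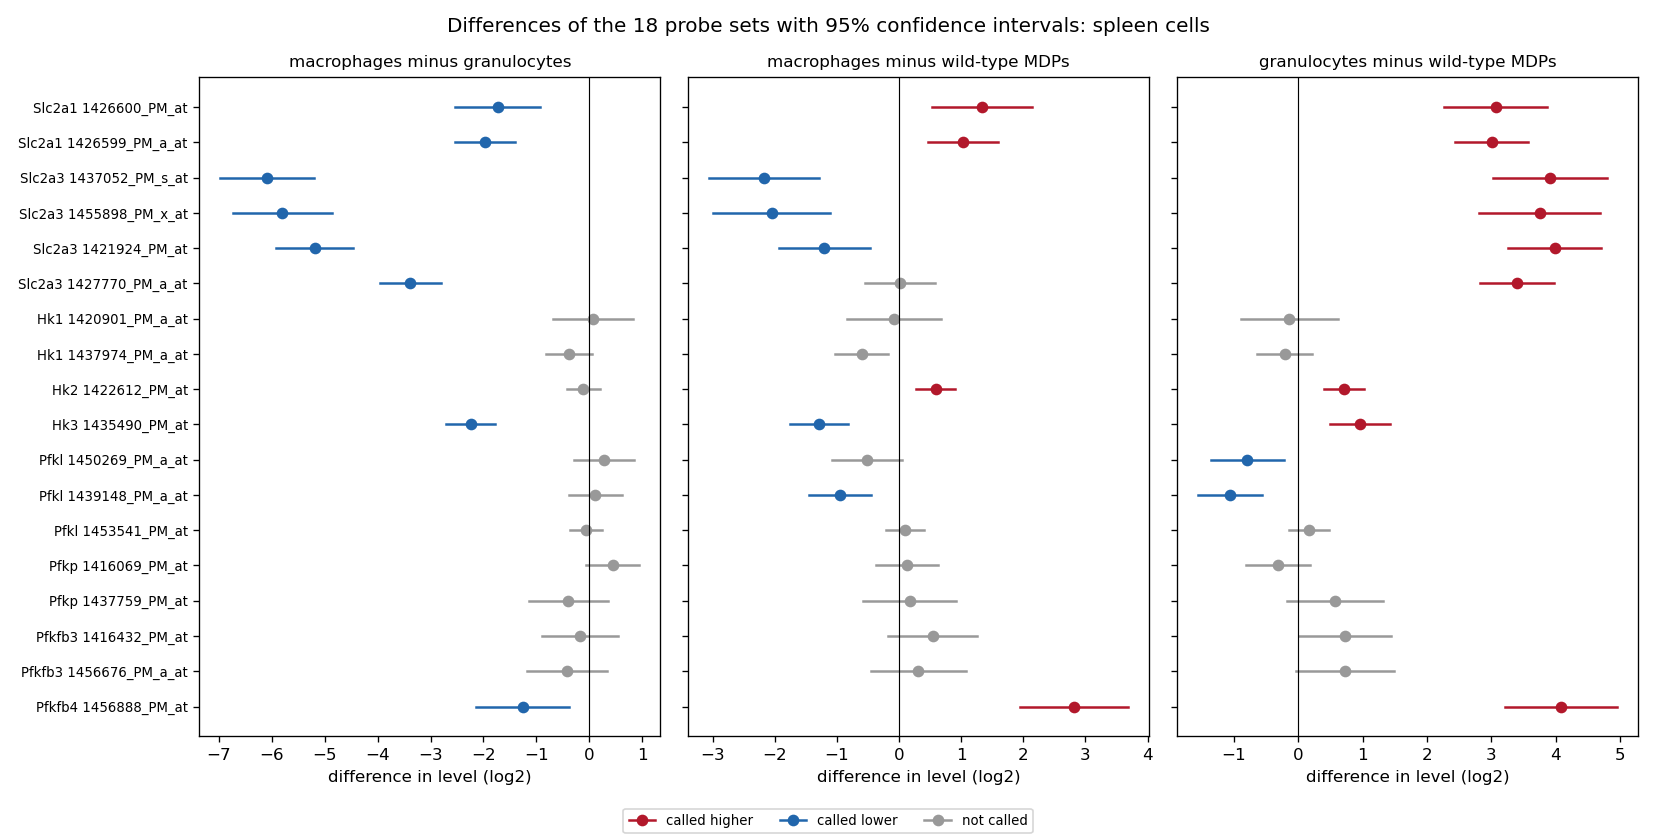
Differences in level (log2) of the 18 probe sets with 95% confidence intervals from limma, for macrophages minus granulocytes, macrophages minus wild-type MDPs and granulocytes minus wild-type MDPs, coloured by call. Pfkfb4 and both Slc2a1 probe sets lie to the right of 0 in both comparisons with wild-type MDPs, and the main Slc2a3 probe set lies at -2.17 in macrophages and 3.91 in granulocytes.

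**Figure D4:**
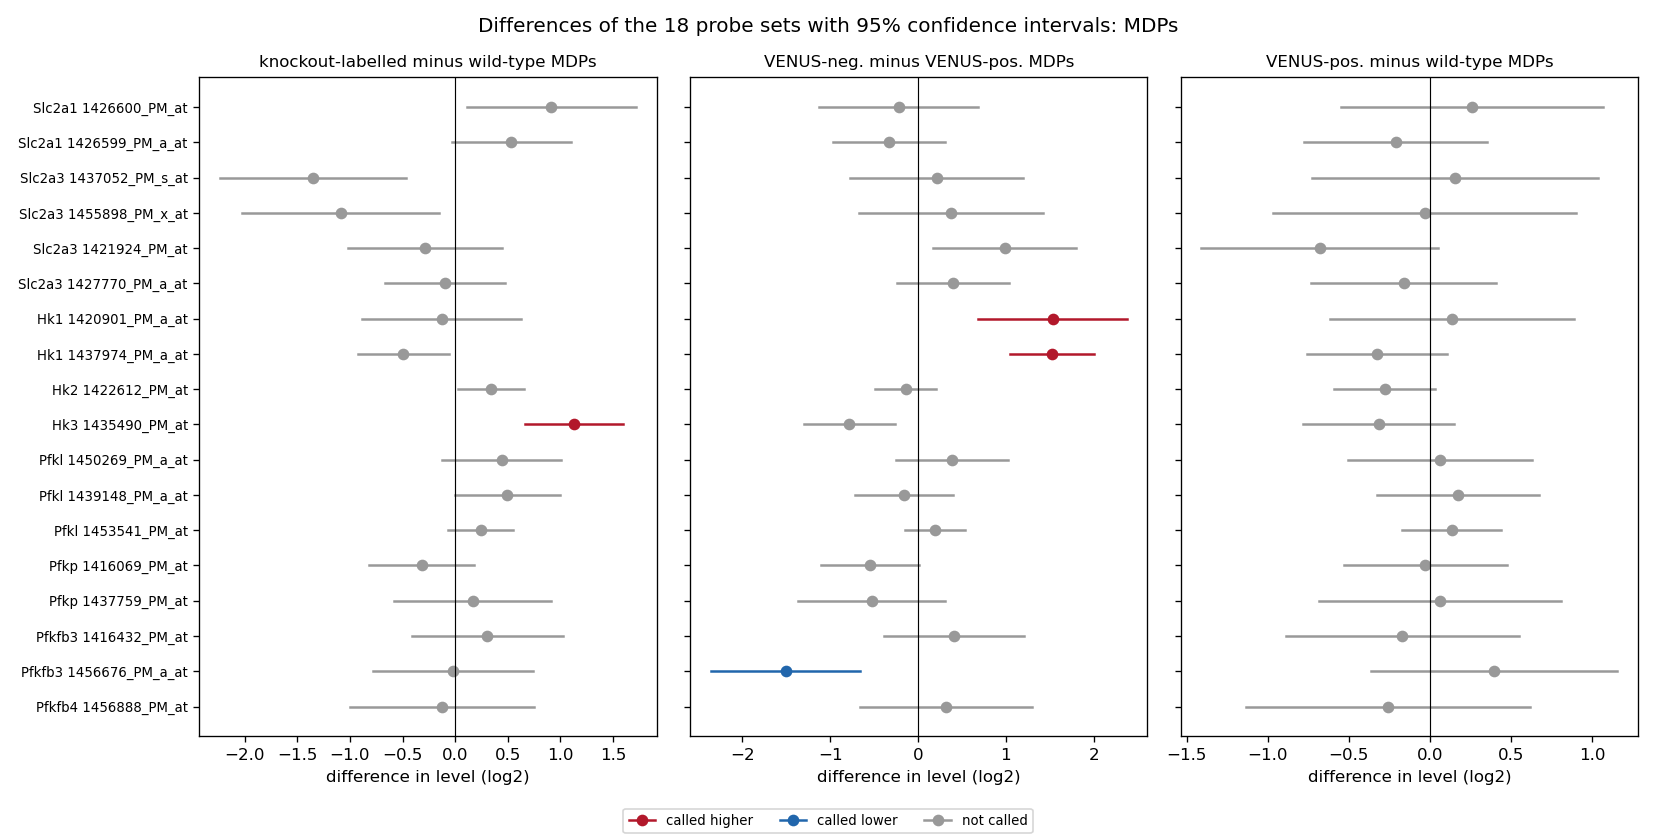
Differences in level (log2) of the 18 probe sets with 95% confidence intervals from limma, for knockout-labelled minus wild-type MDPs, VENUS-negative minus VENUS-positive MDPs and VENUS-positive minus wild-type MDPs, coloured by call. Hk3 (1.13) is the call in the first, both Hk1 probe sets (1.53 and 1.52) and 1 of Pfkfb3 (-1.51) are those in the second, and the third has 0.

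The balance of isoenzymes was read as the difference of 2 main probe sets within an array, compared between groups. Probe sets differ in how they respond to RNA, so these differences give no order of the genes in a cell, only shifts between groups. The difference Hk3 minus Hk2 averaged 1.33 in knockout-labelled against 0.54 in wild-type MDPs, and -1.34 in macrophages against 0.79 in granulocytes. Slc2a3 minus Slc2a1 averaged -2.74 in knockout-labelled against -0.48 in wild-type MDPs, and -3.98 in macrophages against 0.37 in granulocytes. In all 4 of these the arrays of the groups did not overlap. Pfkp minus Pfkl averaged -0.41 in knockout-labelled against 0.35 in wild-type MDPs, again without overlap. These values rest on the main probe sets. Between knockout-labelled and wild-type MDPs the main Pfkp probe set differed by -0.32 and the second by 0.17. The main Slc2a3 probe set differed by -1.35 there, and the others by -1.09, -0.29 and -0.10. Pfkfb4 minus Pfkfb3 averaged 0.50 in macrophages and 1.58 in granulocytes, against -1.77 in wild-type MDPs. Over 5 pairs of genes and 6 comparisons 30 two-sided exact permutation tests were run, and 0 passed after the Benjamini-Hochberg adjustment. Groups of 3 pools allow no p below 0.1, which each of the shifts given here reached (adjusted p = 0.188), and the VENUS comparison, with 2 and 3 pools, allows none below 0.2.

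**Figure D5:**
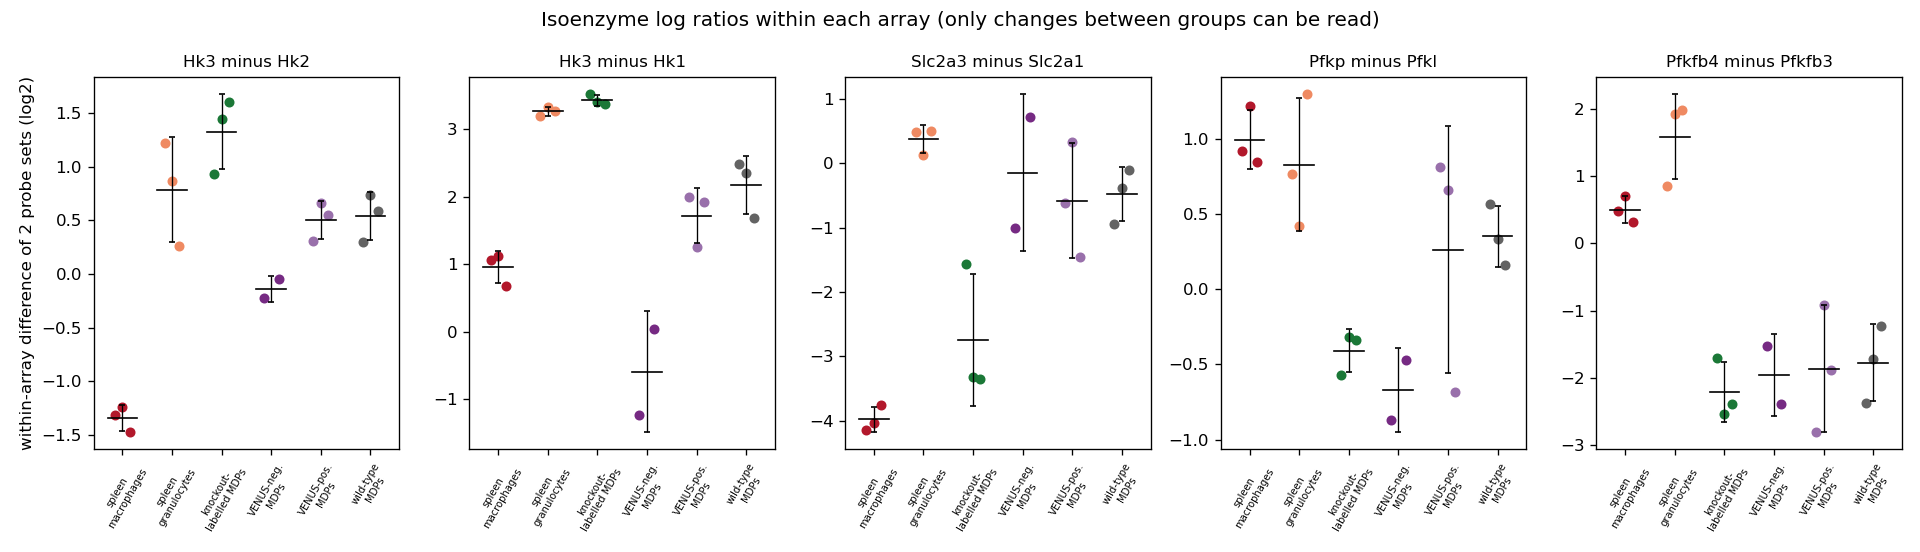
Difference of the main probe sets of 2 isoenzyme genes within each array (log2), with 1 point per array, group means as lines, and the groups from spleen macrophages on the left to wild-type MDPs on the right. Slc2a3 minus Slc2a1 lies between -4.14 and -3.76 in macrophages and between -3.35 and -1.56 in knockout-labelled MDPs, against -0.94 to -0.10 in wild-type MDPs.

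Other genes of the pathway were read from a list of 45 glycolysis, glucose transport and lactate genes, of which 38 had a probe set with their symbol alone. With 1 probe set per gene, 0 of the 38 were called in knockout-labelled minus wild-type MDPs, where limma called 0.784% of all genes and 3 of the 38 had an unadjusted p under 0.05. In VENUS-positive minus wild-type MDPs limma called 0 of the 38 as well, with 1 at an unadjusted p under 0.05. In VENUS-negative minus VENUS-positive MDPs 2 rose and 2 fell (background 5.40%). Pklr, the pyruvate kinase gene of liver and red blood cells, read 10.15 and 9.29 in VENUS-negative against 6.03, 5.87 and 5.91 in VENUS-positive MDPs (log2 difference 3.78, limma adjusted p = 1.5e-05). Pkm, which encodes the pyruvate kinase of most other tissues, read 9.89 and 10.23 against 10.92, 10.73 and 10.91 (-0.79, adjusted p = 0.00517). Txnip, whose product restrains glucose uptake, rose by 1.80, and the monocarboxylate transporter gene Slc16a7 fell by 1.52 on the log2 scale. So the pyruvate kinase genes went opposite ways in the comparison in which Hk1 rose.

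In mature cells the lactate transporter genes were among the largest differences of the list. Of the 38 genes, 8 rose and 8 fell in granulocytes relative to wild-type MDPs (background 43.8%), and 4 rose and 7 fell in macrophages (background 22.4%). Slc16a3, which encodes the lactate exporter MCT4, read 7.90, 8.12 and 8.44 in macrophages and 9.73, 10.23 and 9.97 in granulocytes, against 5.67, 4.71 and 6.00 in wild-type MDPs. Slc16a1, which encodes MCT1, read 4.67, 3.95 and 3.86 in macrophages and 3.56, 3.37 and 2.83 in granulocytes, against 7.19, 7.25 and 8.06 in wild-type MDPs. The mature groups thus lay above all wild-type MDP arrays in Slc16a3 and below all of them in Slc16a1. Pdk1, which encodes a kinase that inhibits pyruvate dehydrogenase, fell by 4.49 in granulocytes and by 2.83 in macrophages on the log2 scale, and Txnip was 2.91 higher in granulocytes. Eno3, the muscle enolase gene, was 3.05 higher in macrophages. Between macrophages and granulocytes 5 rose and 6 fell in macrophages (background 29.6%), led by Eno3 (3.15), Adpgk of an ADP-dependent glucokinase (-2.69), Slc16a7 (2.41) and Slc16a3 (-1.83).

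The mean levels of the 20 glycolysis genes of this list overlapped between these groups. They were 7.12 to 7.19 in macrophages and 6.93 to 7.29 in granulocytes, against 7.11 to 7.48 in wild-type MDPs. Their median log2 difference from wild-type MDPs was -0.18 in macrophages, where all genes had 0.00, and -0.16 in granulocytes, where all genes had 0.10. These means join genes that went both ways. Of the 20, 4 were called higher and 3 lower in granulocytes (background 43.8%), and 1 higher and 4 lower in macrophages (background 22.4%). Gpi1, Pgam1 and Eno1 of the same pathway are not among the 20, as they had no probe set with their symbol alone.

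The genes whose levels ran most like each member were sought by Pearson's r over the 17 arrays among 9587 genes with a mean above the median, which describes these arrays and shares their groups. Pfkfb4 was most like Cd300ld (r = 0.97) and Pilra (0.97), and Slc2a3 like Pdlim7 (0.95) and Septin1 (0.93). Slc2a1 was most like Pdlim2 (0.94) and Mroh1 (0.94), Hk2 like Mgst1 (0.95) and Gsr (0.94), and Hk3 like Srpk2 (0.92) and Mgst2 (0.89). Hk1 ran with Epor (0.87), the erythropoietin receptor gene, and Aqp1 (0.86), a water channel gene of red blood cells. Pfkl was most like Nudt8 (0.91) and Ttll12 (0.90), while the closest genes were less alike for Pfkfb3 (AI463170 and Ints12, both 0.80) and Pfkp (Yipf3 and Slc29a3, both 0.76).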

How the data were processed

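The deposited values are log2 expression values per probe set, which the authors made with Affymetrix Expression Console and RMA, per the submitters' processing notes. Software versions, and whether all arrays were normalized in 1 run, were not given in the sources used here. RMA corrects background, quantile-normalizes and summarises probes, so levels compare arrays and not probe sets. All 17 columns were mapped to samples, and no 2 arrays were identical. By the platform annotation 28898 probe sets had 1 symbol, 551 had several and 15588 had none. All 18 probe sets of the 9 genes had the same symbol by Entrez identifier in the RefSeq table (GRCm38.p6).

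Groups were compared with limma 3.58.1 in R 4.3.3 (two-sided), in 1 fit of group means over all 17 arrays (11 residual and 2.98 prior degrees of freedom), with Benjamini-Hochberg adjustment over 45037 probe sets. Folds are omitted where a group mean lay under the lower quartile of the arrays. The fit was tested on simulated data. The named genes are all 9 members with every probe set and the 2 most alike genes per member. Up to 4 called genes with the largest difference per list and comparison are named too. Marker lists are given as means, with single genes named beside them. The 9 genes and the gene lists were chosen with earlier results of these data known. Alternatives were a second quantile normalization, median centring, a filter on low levels, 1 probe set per gene, a trended robust fit, array weights, 2-group fits, the pool number as a block, and leaving out each array. Whether same-numbered pools share mice or a batch is not stated. Deviations of same-numbered pools from their group means correlated at -0.07 to 0.12. With only 2 or 3 arrays per group this cannot decide whether they are paired. Dendritic cells were not analysed here.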

Additional observations from a re-analysis of the deposited data

How the results depend on the processing

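No difference of the 18 probe sets in the 6 comparisons reversed where it had been called. The counts of called probe sets were 1 for knockout-labelled minus wild-type MDPs, 3 for VENUS-negative minus VENUS-positive MDPs, 0 for VENUS-positive minus wild-type MDPs, 8 for macrophages minus granulocytes, 9 for macrophages minus wild-type MDPs, 11 for granulocytes minus wild-type MDPs and 14 over all groups. Leaving out 1 array gave 0 to 2, 1 to 2, 0 to 0, 7 to 8, 7 to 9, 10 to 11 and 12 to 15 in that order. With 1 probe set per gene, where 9 features are counted, these were 1 for the VENUS comparison, 4 for macrophages minus granulocytes, 5 and 6 for macrophages and granulocytes minus wild-type MDPs, and 7 over all groups. Fits of only the 2 groups compared called 0 for the knockout comparison and 1 for the VENUS comparison. For macrophages minus wild-type MDPs such a fit added the main Pfkfb3 probe set (limma adjusted p = 0.0113) and the second of Hk1 (0.0344). With a replicate block for the pool number, the knockout comparison gave 0, with Hk3 at an adjusted p of 0.0611 over all 17 arrays and 0.224 in the 2-group fit, and the VENUS comparison gave 0 in the 2-group fit. Why the block and the smaller fits lost these calls was not tested, except that fewer arrays enter the smaller fits. The main Hk1 probe set lost its VENUS call with array weights (limma adjusted p = 0.0509), with centred arrays (0.0544) and with the replicate block over all 17 arrays (0.0522), and the second lost it in the 2-group block fit (0.211). The Pfkfb4 difference between macrophages and granulocytes lost its call with centred arrays (0.0523) and with that block (0.0526). Quantile normalization repeated on the deposited values called 13 for granulocytes minus wild-type MDPs, adding both Pfkfb3 probe sets (0.99 and 1.02) and the third of Pfkl (0.47) and losing the main one of Pfkl (0.152), and it called 9 for macrophages minus granulocytes. The array signal limits Slc2a3 in macrophages with probe set 1421924_PM_at, near the lower quartile of the arrays, Slc2a3 in all groups but granulocytes with 1427770_PM_a_at, under the array medians, and Pfkfb4 in MDPs, near the medians.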

Other observations

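Genes of the pentose phosphate pathway and genes of the hypoxia response were read with the same fit. Of 6 pentose phosphate genes, 3 were higher and 2 lower in granulocytes than in wild-type MDPs, where limma called 43.8% of all genes. Taldo1, which encodes transaldolase, read 9.68, 9.54 and 9.52 in macrophages and 10.28, 10.71 and 10.53 in granulocytes, against 8.33, 7.86 and 8.73 in wild-type MDPs, so that both mature groups lay above all wild-type MDP arrays. Pgd, which encodes an oxidative enzyme of the pathway, was 1.02 higher in granulocytes (limma adjusted p = 6.6e-05), and Pgls and Rpia were 1.36 and 0.84 lower on the log2 scale.

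Of 16 genes of the hypoxia response 7 rose and 3 fell in granulocytes and 5 rose and 3 fell in macrophages, relative to wild-type MDPs, where 43.8% and 22.4% of all genes were called. This list includes Hif1a and Epas1, which encode subunits of the hypoxia-inducible factors themselves. Ddit4, which encodes an inhibitor of mTORC1 signalling, read 12.13, 12.20 and 12.48 in macrophages and 8.97, 9.72 and 11.30 in granulocytes. Wild-type MDPs had 7.35, 7.83 and 7.64 for it. Other genes of the list went the other way, and Higd1a and Car9 lay below all wild-type MDP arrays in both mature groups. Higd1a read 8.31, 8.17 and 8.24 in macrophages and 6.33, 7.06 and 6.41 in granulocytes, against 8.89, 8.57 and 8.92 in wild-type MDPs. Vegfa, the growth factor gene, was the 1 gene of the list called in knockout-labelled minus wild-type MDPs (background 0.784%). It read 6.64, 5.84 and 6.50 in knockout-labelled against 5.20, 4.72 and 4.67 in wild-type MDPs, without overlap (log2 difference 1.46, limma adjusted p = 0.00711). In VENUS-negative minus VENUS-positive MDPs 1 of the 16 rose and 1 fell (background 5.40%). Egln3, which encodes a prolyl hydroxylase of the hypoxia response, fell by 1.73 and Ankrd37 was 0.82 higher on the log2 scale.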
